A study of Xiphophorus maculatus x Xiphophorus hellerii with 32 samples.

Results

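Skin and melanoma were compared within 3 fish, named 11935d, 11935e and 11935f in the sample titles. Each of these fish gave 1 skin and 1 tumor library, so 6 of the 32 libraries of the series are described here, chosen by title number and tissue and not by any measured value. The fish were 9 months old and carried melanoma. They were first-generation backcross (BC1) hybrids, in which a platyfish, Xiphophorus maculatus, had been crossed with a swordtail, Xiphophorus hellerii, so the skin libraries also come from tumor-bearing animals and hold no tumor-free control. The rest of the series holds fish of the same cross and age under other title numbers, of which 11 gave both tissues. The labels do not say what the number 11935 marks (a brood, for example), nor do they give the body site of the skin, the size of the tumors or the sex of the fish.

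Certain platyfish carry the oncogene Xmrk, a duplicated and mutated copy of the gene for the epidermal growth factor receptor, a receptor tyrosine kinase at the cell surface. In the Gordon-Kosswig cross, backcrossing to the swordtail removes a platyfish locus that restrains Xmrk in pigment cells, and hybrids that inherit Xmrk without this regulator can develop melanoma. The receptor is active without ligand and drives growth and survival signalling in the pigment cell lineage. Melanocyte, keratinocyte and other cell type markers could not be used to check the tissues, because no such marker is among the rows with a gene symbol. Xmrk is the single named row that bears on the tumor label. As a copy, it may share reads with the gene it was duplicated from, and the handling of gene copies is not given.

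Total counts of the 6 libraries ranged from 5303395 in the skin of 11935f to 6977222 in the tumor of 11935e. Between 17802 and 17936 transcript rows had at least 1 count in each of them, and the 10 most abundant transcripts took 8.87% to 15.9% of the counts. Levels are given below as TMM-scaled CPM, counts scaled by library size with a correction for composition. A within-fish difference is the log2 CPM of the tumor minus that of the skin of the same fish, computed with a prior count of 2, which draws the folds of rows with few counts towards 1. Tests are edgeR quasi-likelihood tests with the fish as a block, adjusted by the Benjamini-Hochberg method over 14902 transcripts, with a threshold of 0.05. In whole tissue, a lower level cannot be separated into fewer cells of a type and less RNA per cell.

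Xmrk was higher in the tumor of each fish, by very different amounts. In skin it stood at 75.8 CPM in 11935d, 74.2 CPM in 11935e and 31.2 CPM in 11935f. In tumor it stood at 131 CPM in 11935d, 206 CPM in 11935e and 556 CPM in 11935f. The groups did not overlap, but the tumors of 11935d and 11935e lay much nearer to the skins than to the tumor of 11935f. The tumor level was 1.72-fold the skin level in 11935d, 2.77-fold in 11935e and 17.6-fold in 11935f. The fish with the lowest Xmrk in skin thus had the highest in tumor. The 3 skins averaged 60.4 ± 25.3 CPM and the 3 tumors 298 ± 227 CPM (SD), and the log2 fold change was 2.06 (SE 0.68). This did not pass the threshold (edgeR unadjusted p = 0.0237, adjusted p = 0.102). Without 11935f the estimate was smaller, at 1.13, and the adjusted p was 0.00230 (edgeR). With the spread estimated over all 14 paired fish of the series, the adjusted p of Xmrk in 11935 was 0.0466 (edgeR). DESeq2 gave 0.00438. Xmrk passed in these 3 of the 13 settings run, the reported one included, and over all of them the adjusted p ran from 0.00230 to 0.678. It was 0.247 without the block, 0.0943 without 11935d and 0.268 without 11935e in edgeR, and 0.0513 in limma voom.

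STAT4, a transcription factor activated by interleukin-12 and related cytokines, rose in tumor. Its skin levels were 5.90, 4.26 and 5.98 CPM in 11935d, 11935e and 11935f, and its tumor levels were 13.1, 8.03 and 13.8 CPM. All 3 tumors lay above all 3 skins, and the rise was of like size in the 3 fish, between 1.82-fold and 2.24-fold. On the log2 scale the rise was 1.10 (SE 0.22, edgeR adjusted p = 0.0411). Without the block the adjusted p was 0.324, without 11935d it was 0.126 and without 11935e it was 0.229 (edgeR).

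AP1M1 encodes a subunit of the AP-1 clathrin adaptor, which sorts cargo between the Golgi and endosomes. It stood at 26.5, 15.2 and 26.8 CPM in the skins of 11935d, 11935e and 11935f and at 32.9, 33.7 and 48.7 CPM in their tumors. All tumors were above all skins, and the smallest difference was that of 11935d. Its log2 fold change of 0.77 (SE 0.21) did not pass (edgeR adjusted p = 0.0718). It passed in 1 of the 13 settings, edgeR without 11935f (adjusted p = 0.0392).

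CALR3_1of2 is a copy of a calreticulin gene of the endoplasmic reticulum, and its reads may be shared with the other copy. It measured 145, 148 and 114 CPM in the skins of 11935d, 11935e and 11935f and 235, 199 and 230 CPM in their tumors. The tissues did not overlap, and the difference was largest in 11935f. With a log2 fold change of 0.71 (SE 0.18), it did not pass (edgeR adjusted p = 0.0610). It passed in 3 of the 13 settings: DESeq2 (adjusted p = 0.0419), limma voom (adjusted p = 0.0272) and edgeR without 11935f (adjusted p = 0.0373).

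GSTM3, a glutathione S-transferase that conjugates glutathione to reactive compounds, followed the order of Xmrk over the 3 tumors. Its skin levels were 45.2 CPM in 11935d, 41.3 CPM in 11935e and 101 CPM in 11935f, and its tumor levels were 50.2, 80.4 and 545 CPM. The tumor exceeded the skin 1.11-fold in 11935d, 1.94-fold in 11935e and 5.38-fold in 11935f. The within-fish difference rose in this order of fish in 23.8% of all rows with counts, rows lower in tumor included. The skin of 11935f lay above the tumors of both other fish, so the tissues overlapped. Its log2 fold change of 1.18 (SE 0.44) did not pass (edgeR adjusted p = 0.131).

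GPX6, of the glutathione peroxidase family that reduces hydroperoxides, fell in tumor. It measured 13.8, 20.6 and 9.45 CPM in the skins of 11935d, 11935e and 11935f and 5.14, 7.10 and 5.01 CPM in their tumors. Every tumor lay below every skin. The skin level exceeded the tumor level 2.58-fold in 11935d, 2.82-fold in 11935e and 1.83-fold in 11935f. Here 11935f, with the largest rise of Xmrk, had the smallest difference. This was a log2 fold change of -1.30 (SE 0.23, edgeR adjusted p = 0.0329). Without the block the adjusted p was 0.283 and with the spread shared by all paired fish 0.0602, while without 11935d it was 0.0923 and without 11935e it was 0.246 (edgeR).

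CHD4_2of2, a copy of the ATPase subunit of the NuRD chromatin remodelling complex, measured 108, 107 and 140 CPM in skin and 67.5, 77.3 and 73.6 CPM in tumor, in the order of 11935d, 11935e and 11935f. The tissues did not overlap, and the log2 fold change was -0.69 (SE 0.16). It narrowly missed the threshold (edgeR adjusted p = 0.0530), and the row may share reads with its other copy. The row passed in 2 of the 13 settings, limma voom (adjusted p = 0.0296) and edgeR without 11935f (adjusted p = 0.0237).

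HSP90AB1, the constitutive cytosolic chaperone of the HSP90 family, was the most abundant named row and ranked 17 among all tested transcripts. It stood at 6590, 4622 and 5590 CPM in the skins of 11935d, 11935e and 11935f and at 4430, 3662 and 4076 CPM in their tumors. The tumors lay below the skins with no overlap. The log2 fold change of -0.45 (SE 0.21) did not pass (edgeR adjusted p = 0.200). It passed in 1 of the 13 settings, limma voom (adjusted p = 0.0323).

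**Figure D1:**
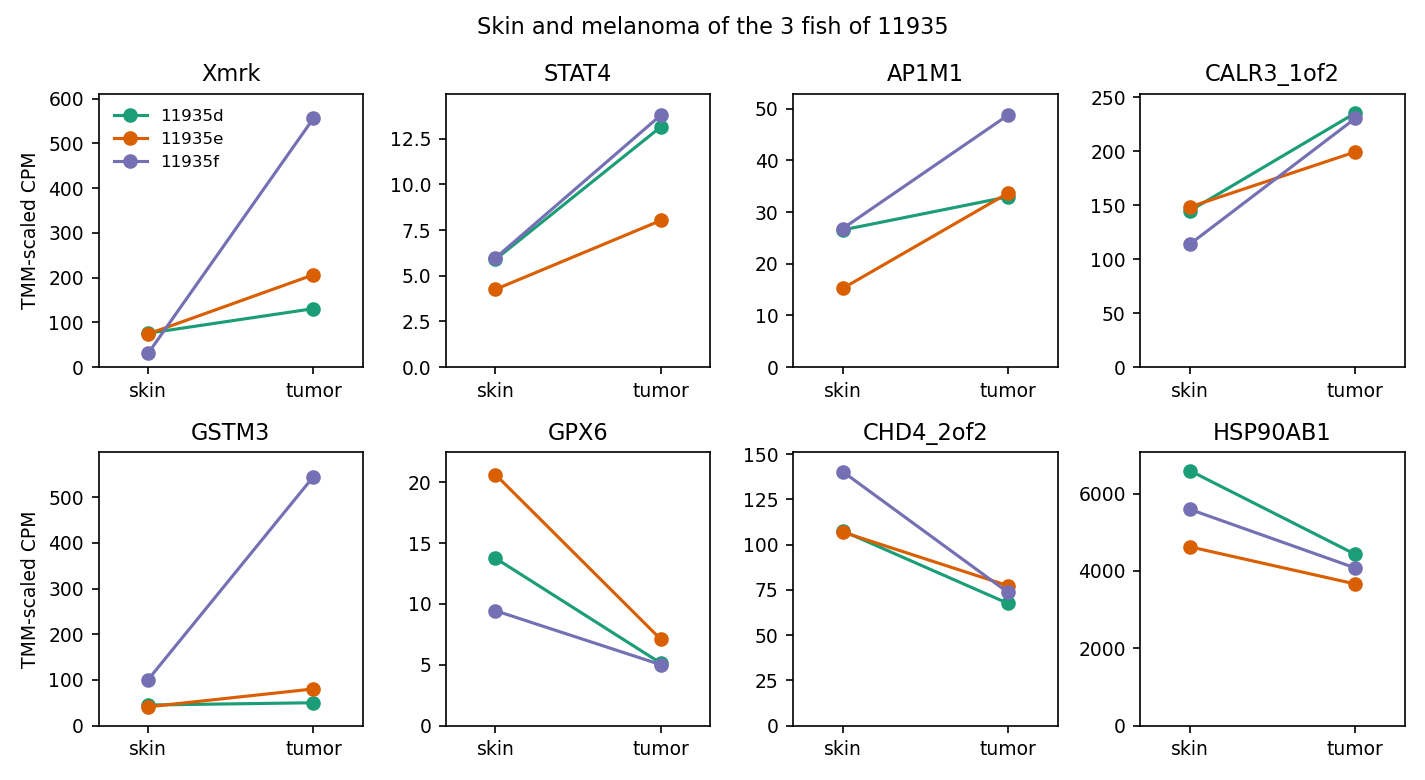
Levels of 8 named rows in skin and tumor, with TMM-scaled CPM on a vertical axis that starts at 0 and a line joining the libraries of each fish. Xmrk and GSTM3 climb most in 11935f (to 556 and 545 CPM) and less in the other fish. STAT4, AP1M1 and CALR3_1of2 are higher and GPX6, CHD4_2of2 and HSP90AB1 lower in the tumor of each of the 3 fish.

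STAT4 and GPX6 were the 2 rows past the threshold among the 20 tested rows with a gene symbol. This share lies next to the 10.1% of all tested transcripts that passed. The 3 tumors and 3 skins did not overlap in 9 of the 20 rows, against 19.2% of all transcripts. In 5 of them the tumors lay above the skins (8.62% of all transcripts) and in 4 below (10.6%). In 14 rows the 3 fish had the same sign, 7 higher and 7 lower in tumor, against 57.1% of all transcripts. The median log2 fold change of the 20 rows was -0.04, against 0.02 over all transcripts. Besides those above, the rows without overlap were LDHB_1of2, a lactate dehydrogenase copy (1038 to 1159 CPM in skin, 841 to 931 CPM in tumor), and CSNK1A1, casein kinase 1 alpha of the Wnt pathway (252 to 259 CPM in skin, 294 to 350 CPM in tumor). Neither passed (edgeR adjusted p = 0.263 and 0.255).

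Neither tested stress-activated kinase passed. MAPK9, a JNK kinase, stood at 27.7, 32.4 and 30.8 CPM in skin and 25.1, 29.5 and 27.9 CPM in tumor (log2 fold change -0.14, SE 0.15, edgeR adjusted p = 0.569). MAPK14_2of2, a copy of p38 alpha, was lower in the tumor of each of the 3 fish (log2 fold change -0.42, SE 0.20, edgeR adjusted p = 0.210). Of the protein kinase C genes, PRKCE_1of2 lay at 20.1, 22.8 and 30.7 CPM in skin and 12.8, 18.2 and 29.9 CPM in tumor, and PRKCB was higher in the tumor of 11935d and 11935e and lower in that of 11935f. FGFR4, a fibroblast growth factor receptor, went up in 11935d (24.4 to 36.6 CPM) and down in 11935e (32.3 to 21.3 CPM) and 11935f (25.6 to 20.2 CPM). None of these 5 rows passed in edgeR.

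CYP1A1, the xenobiotic-metabolising enzyme induced through the aryl hydrocarbon receptor, divided the fish. It was 3.11 CPM in the skin of both 11935d and 11935e and 10.99 CPM in that of 11935f, and 5.14, 5.09 and 1.57 CPM in their tumors. The tumor exceeded the skin 1.59-fold in 11935d and 1.58-fold in 11935e, while the skin exceeded the tumor 5.98-fold in 11935f. The log2 fold change was -0.38 (SE 0.74, edgeR adjusted p = 0.765), and 0.71 without 11935f. OXR1, a gene of oxidation resistance, was at 41.6, 46.8 and 44.5 CPM in skin and 34.3, 46.6 and 47.3 CPM in tumor. The clock repressor CRY2, the ubiquitin ligase scaffold CUL4B and the orphan receptor copy NR2F6_1of2 had log2 fold changes between -0.01 and 0.24, and none passed in edgeR (lowest adjusted p = 0.373).

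A further 10 rows with a symbol had too few counts for a test. PMEPA1, a target and inhibitor of transforming growth factor beta signalling, had 2, 5 and 2 counts in the skins of 11935d, 11935e and 11935f and 0, 10 and 20 counts in their tumors. CCR6_1of2, a chemokine receptor copy, had 2, 3 and 1 counts in skin and 8, 7 and 6 counts in tumor. MAPK11, p38 beta, had 11, 5 and 22 counts in skin and 10, 8 and 4 counts in tumor. Of 15 lists (pigment cell, epidermis, muscle, immune, vessel, matrix, bone, nerve sheath, cell cycle, signalling and metabolic genes), 11 matched no symbol. The list for glutathione and oxidative stress matched GPX6, which fell, and GSTM3 and OXR1, which did not pass, although GSTM3 was higher in the tumor of each of the 3 fish. Over all transcripts 4.15% passed as higher and 5.95% as lower. Those for receptor signalling, heat shock and glycolysis matched Xmrk, HSP90AB1 and LDHB_1of2, of which 0 passed.

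The test over 14902 transcripts called 1505 (10.1%) in edgeR. Tumor was higher in 618 (4.15%) and skin in 887 (5.95%). By size of the fitted change, 464 of the higher and 720 of the lower calls reached 2-fold, 123 and 255 reached 4-fold, and 40 and 76 reached 8-fold. The lower calls thus outnumbered the higher ones at each of these sizes. Without the block 0 passed in edgeR, while 1746 transcripts had an unadjusted p below 0.05, and DESeq2 with the block called 2094, 1050 higher and 1044 lower. The count changed when a fish was left out: it was 441 without 11935d, 0 without 11935e and 3129 without 11935f. Each omission also left fewer pairs, and the part of this in the counts was not tested.

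The identifiers of the other rows are not paired with gene names in the files, so only 4 are given. They are the 2 largest rises of 528 candidates and the 2 largest falls of 742, so their ratios are extremes by choice. ENSXMAT00000002947 had 0, 0 and 5 counts in the skins of 11935d, 11935e and 11935f and 510, 155 and 123 counts in their tumors. Summed over the fish and scaled for depth, the tumors held 141-fold more (95% exact interval 60.1 to 435, counting error only, edgeR adjusted p = 0.0170). This row was not among those tested in the other fish or in the joint fits of all paired fish. ENSXMAT00000016375 had 2, 0 and 1 counts in skin and 302, 63 and 25 counts in tumor, a ratio of 116 (39.4 to 565, edgeR adjusted p = 0.00931). In both, the tumor of 11935d was the highest of the 3, the reverse of the order seen for Xmrk. ENSXMAT00000016375 was also higher in tumor in the other paired fish (log2 fold change 5.74, edgeR adjusted p = 4.73e-07).

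ENSXMAT00000004916 had 362, 644 and 193 counts in the skins of the 3 fish and 1, 4 and 0 counts in their tumors, so that skin exceeded tumor 268-fold (95% exact interval 115 to 828, counting error only, edgeR adjusted p = 0.00680). ENSXMAT00000003959 had 125, 174 and 503 counts in skin and 0, 1 and 3 in tumor, a ratio of 224 (87.3 to 826, edgeR adjusted p = 0.00680). Both were chosen as the largest falls in these same libraries, so counts near 0 in all 3 tumors follow from the choice. The other paired fish played no part in that choice, and both transcripts were also lower in tumor there. The log2 fold change there was -7.86 for ENSXMAT00000004916 (edgeR adjusted p = 9.63e-08). For ENSXMAT00000003959 it was -7.24 (edgeR adjusted p = 1.01e-08). All 4 identifiers lost their call without the block (edgeR adjusted p from 0.0695 to 0.136) and without 11935e (0.0919 to 0.132), as did every other transcript. ENSXMAT00000016375 also lost it in limma voom (adjusted p = 0.0532).

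The 3 fish differed in how far the tumor had moved from the skin. Among 9543 transcripts with a mean of at least 10 CPM, 9.75% differed at least 2-fold within 11935d, 13.2% within 11935e and 27.7% within 11935f. In 11935f 1396 of them were higher and 1246 lower in tumor, against 434 and 496 in 11935d. The interquartile range of the within-fish differences of all tested transcripts was 0.73, 0.81 and 1.21 on the log2 scale in 11935d, 11935e and 11935f, with medians between 0.00 and 0.04. 11935f had the lowest total count of the 3 fish in both tissues (5303395 in skin and 5789725 in tumor) and 11935e the highest (6673975 and 6977222), and the part of depth in these shares was not tested.

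The within-fish differences nevertheless correlated positively between the fish. Of the 14902 tested transcripts, 57.1% had the same sign in all 3 fish. The correlation of the differences over these transcripts was r = 0.685 between 11935d and 11935e, 0.519 between 11935d and 11935f and 0.683 between 11935e and 11935f (Spearman's rho 0.631, 0.486 and 0.623). These values describe transcripts of the same libraries, which are not independent of each other. Among the 9543 abundant transcripts, 961 changed at least 2-fold the same way in 11935e and 11935f and 21 in opposite directions. For 11935d and 11935f these numbers were 575 and 127, and for 11935d and 11935e they were 582 and 4.

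**Figure D2:**
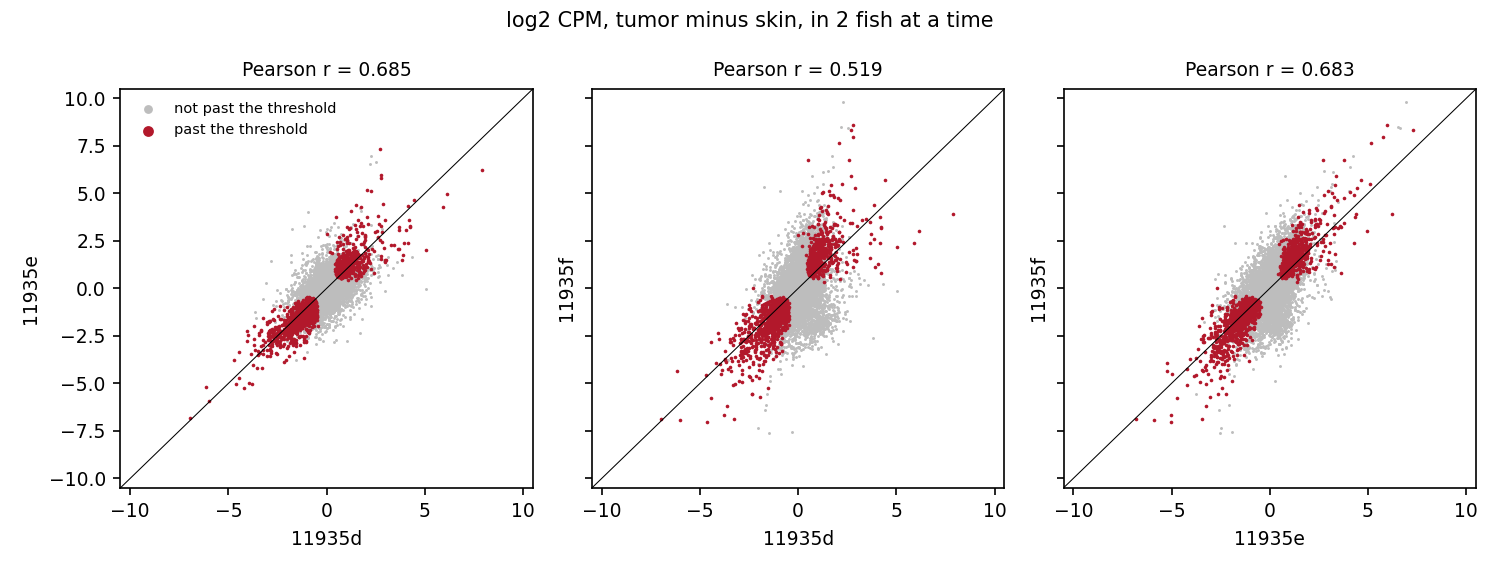
Log2 CPM of tumor minus skin for 14902 transcripts, plotted for each pairing of the 3 fish, with the transcripts past the threshold in red and the line of equal change in black. The clouds tilt along the line for 11935d and 11935e (r = 0.685) and are steeper for 11935f, which moved further than 11935d (r = 0.519).

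The extent of change was then read from transcripts chosen in other animals. The 11 other paired fish gave 129 transcripts that were at least 8-fold higher and 103 that were at least 8-fold lower in tumor and passed in edgeR with the fish as a block, where 39% of the tested transcripts passed. The libraries of 11935 played no part in that choice. Of the 129 gained transcripts, 105 passed the low-count filter in 11935, and of the 103 lost ones 102 did. The values below cover all 129 and all 103.

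The gained transcripts were higher in tumor in each of the 3 fish, in steps. Their median within-fish difference was 1.12 on the log2 scale in 11935d, 2.46 in 11935e and 3.72 in 11935f, and the median over all 19405 rows with counts was 0 in each. The scaling holds the median of all rows near 0. Their upper quartile was 0.38 in 11935d, 0.44 in 11935e and 0.61 in 11935f. In 11935d 118 of the 129 were higher in tumor and 8 reached 8-fold. In 11935e 128 were higher and 42 reached 8-fold, and in 11935f 128 were higher and 98 reached 8-fold. Of all rows with counts, 46.9%, 49.3% and 47.9% were higher in tumor in 11935d, 11935e and 11935f. In the same order, 0.19%, 0.33% and 1.36% reached 8-fold. The difference grew from 11935d over 11935e to 11935f in 96 of the 129 transcripts (74.4%), and in 23.8% of all rows with counts. All rows include those lower in tumor or hardly changed. The share among rows higher in tumor was not computed.

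The lost transcripts showed the same order with smaller steps. Their median within-fish difference was -2.15 in 11935d, -2.42 in 11935e and -3.51 in 11935f. They were lower in tumor in 95, 102 and 103 of 103 cases, and at least 8-fold lower in 24, 29 and 72. Of all rows with counts, 48.4%, 46.4% and 48.1% were lower in tumor. At least 8-fold lower were 0.30%, 0.28% and 1.11%. The difference deepened from 11935d over 11935e to 11935f in 61 of the 103 (59.2%). The share of all rows with counts in this falling order was not computed. In the test of 11935 itself, 62 of the 129 gained transcripts (48.1%) and 69 of the 103 lost ones (67.0%) passed in the same direction, against 4.15% of all tested transcripts that passed as higher and 5.95% as lower.

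**Figure D3:**
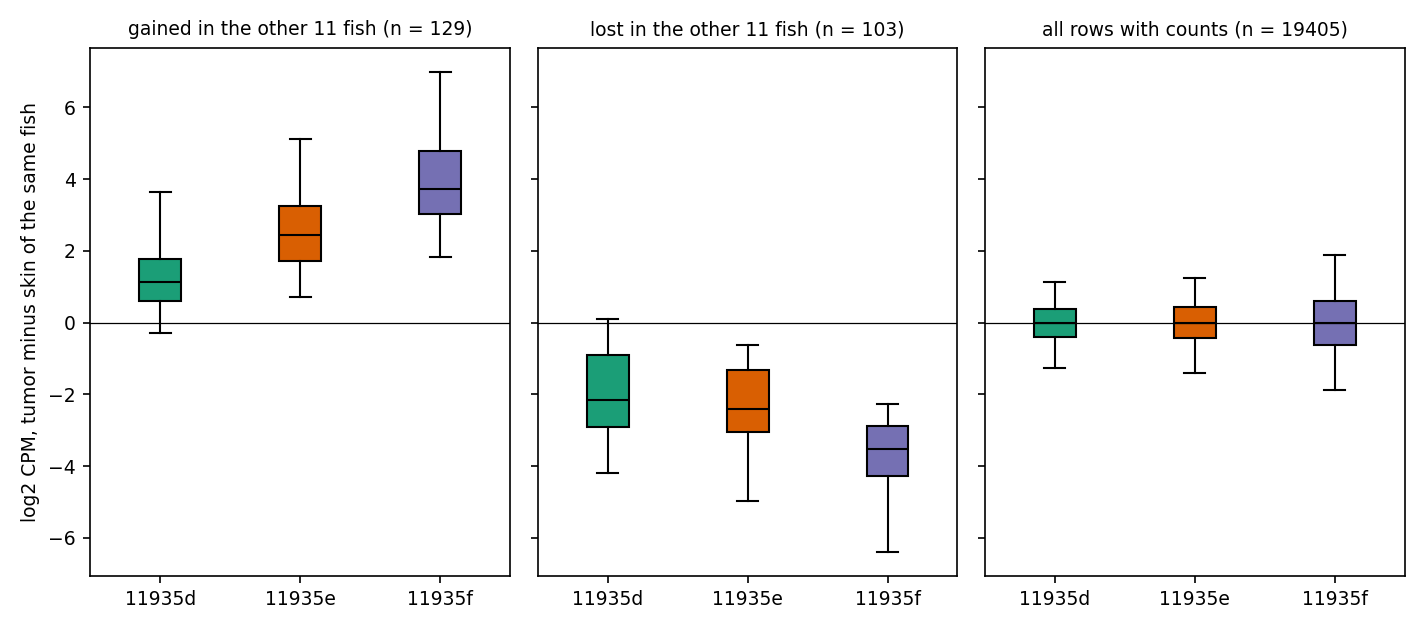
Within-fish differences in log2 CPM (tumor minus skin) of the 129 transcripts gained and the 103 lost in the tumors of 11 other fish, and of all 19405 rows with counts. Boxes span the quartiles with the median as a line, and whiskers run from the 5th to the 95th percentile. The medians of the gained transcripts step from 1.12 to 2.46 to 3.72. Those of all rows are 0 in each fish, where the scaling holds them near 0. The quartiles of all rows widen from -0.41 and 0.38 in 11935d to -0.61 and 0.61 in 11935f.

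As a share of all counts, the gained transcripts took 0.130%, 0.0647% and 0.122% of the skin libraries of 11935d, 11935e and 11935f. In the tumors they took 0.433%, 0.826% and 4.62%. The tumor of 11935f thus stood far above the others, with 37.9 times the share of its own skin, against 12.8 times in 11935e and 3.33 times in 11935d. Abundant members weigh most in these shares: a single transcript held 20.9% of the gained counts summed over these libraries. The median fold of the members was 13.2 in 11935f, 5.48 in 11935e and 2.18 in 11935d. The lost transcripts took 1.28%, 1.59% and 3.28% of the skin libraries and 0.761%, 0.628% and 0.422% of the tumor libraries. Relative to its own skin, the tumor of 11935d kept the most of them, and its skin had the least to begin with. Whether skin was dissected along with the tumor of 11935d was not tested.

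**Figure D4:**
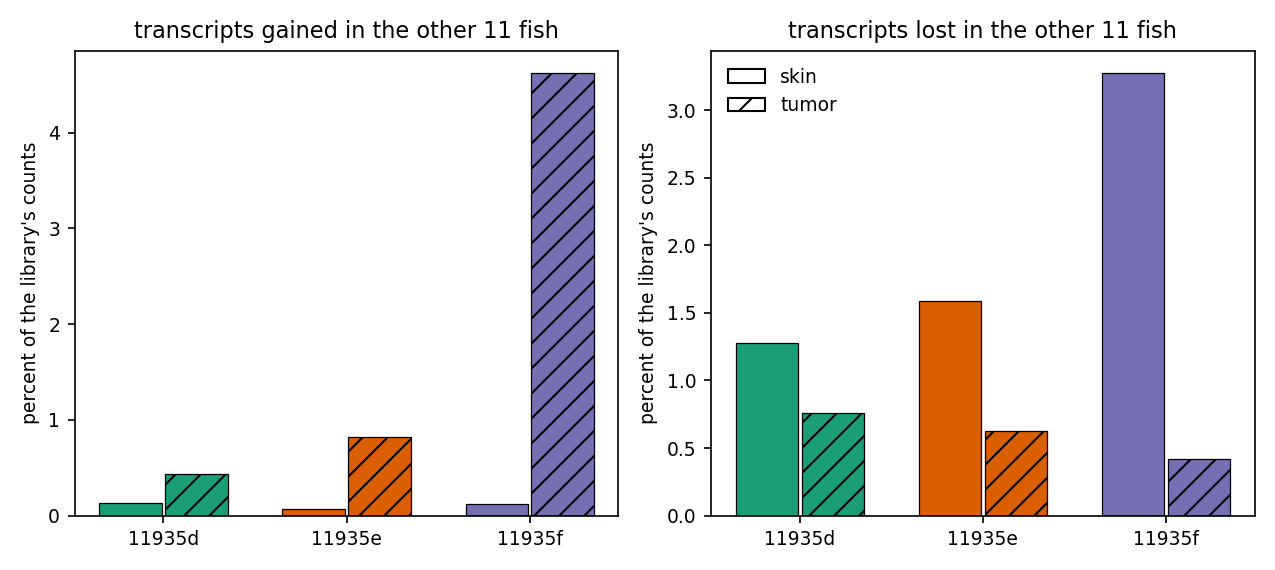
Percent of each library's counts that fell on the transcripts gained (left) and lost (right) in the tumors of 11 other fish, for skin (plain) and tumor (hatched) of the 3 fish. The gained share reaches 4.62% in the tumor of 11935f and 0.433% in that of 11935d, and the lost share falls least within 11935d (1.28% to 0.761%).

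Many of the calls made in 11935 were also made in the other fish. Of the 1505 calls, 1410 were tested there and 95 were not. Of the 1410, 1360 (96.5%) had the same sign, against 77.4% of all transcripts tested in both. In the same direction, 333 of 596 higher calls (55.9%) and 738 of 814 lower calls (90.7%) also passed there, against 36.9% of all transcripts. Among the 20 named rows, 9 passed in the other fish, near the share of 39% of all transcripts tested there. Of these 9 rows, 8 had the same sign in 11935. Over all transcripts 5582 passed in the other fish, of which 5179 were also tested in 11935 and had the same sign. Xmrk was 8.76-fold higher in tumor in the other fish (log2 fold change 3.13, SE 0.25). The exception in sign was OXR1, with a log2 fold change of -0.07 in 11935 and 0.46 in the others. CYP1A1 was counted as alike (-0.38 in 11935 and -1.19 in the others). Its level was nevertheless higher in the tumor of 11935d and 11935e, and lower only in that of 11935f.

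**Figure D5:**
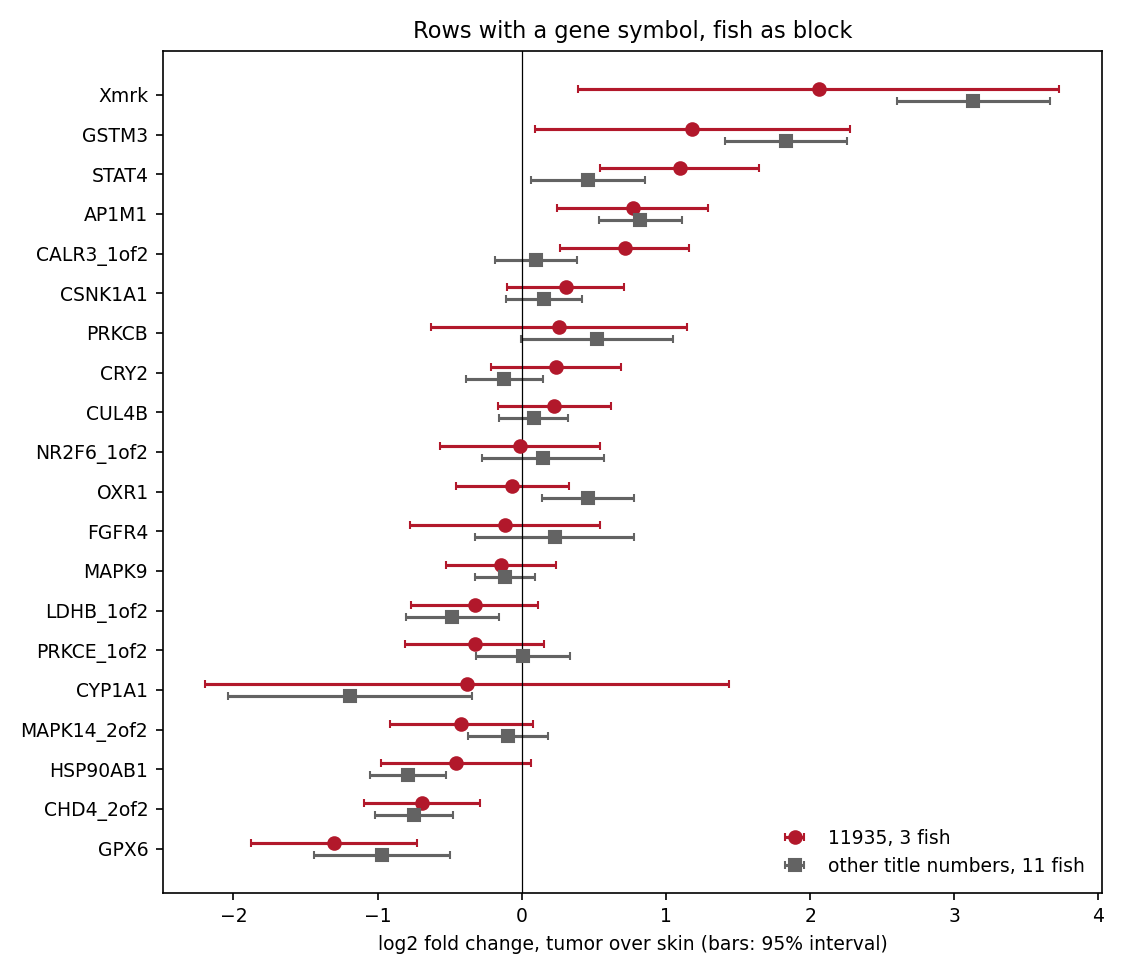
Log2 fold change of tumor over skin for the 20 tested rows with a symbol, in the 3 fish of 11935 (red circles) and in the 11 other paired fish (grey squares), with 95% intervals. The intervals were computed from the log2 fold change and F statistic of edgeR fits with the fish as a block. They are not adjusted for the number of transcripts tested. The intervals of 11935 are the wider ones, and those of Xmrk run from 0.39 to 3.73 in 11935.

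Whether the difference between tumor and skin was itself unlike that of the other fish was tested in a joint fit of the 28 libraries of paired fish. Of 14591 transcripts 0 passed in edgeR, 1049 had an unadjusted p below 0.05, and DESeq2 called 10, 1 with a higher and 9 with a lower tumor-over-skin difference in 11935. For Xmrk the log2 fold change of 11935 lay 1.08 below that of the others, as a difference of -1.08 with a 95% interval from -2.46 to 0.31 (SE 0.65, edgeR unadjusted p = 0.119, adjusted p = 0.768). Without 11935f the difference was -1.998 (unadjusted p = 0.00318, adjusted p = 0.300, edgeR). It was -0.34 without 11935d (unadjusted p = 0.644, edgeR) and -0.68 without 11935e (unadjusted p = 0.416, edgeR). Its size thus depended on the fish kept, and 11935f was the fish with the largest rise of Xmrk. The smallest unadjusted p among the named rows was that of CALR3_1of2, whose log2 fold change was higher by 0.60 in 11935 (SE 0.27, edgeR unadjusted p = 0.0414, adjusted p = 0.686). STAT4, which passed in 11935 and not in the other fish (edgeR adjusted p = 0.0640 there), differed by 0.62 (SE 0.36, edgeR adjusted p = 0.747), so that no difference was shown.

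Set against the 11 other fish on 1 scale, 11935d had the lowest Xmrk difference between tumor and skin of all 14 fish (1.75-fold) and 11935e the next lowest (2.76-fold), below the 3.25-fold of the lowest other fish. 11935f, at 17.1-fold, lay within the range of the others, which reached 21.4-fold. The mean log2 difference was 2.12 ± 1.74 in 11935 (SD, n = 3) and 3.13 ± 0.83 in the others (SD, n = 11, two-sided exact permutation test over fish, p = 0.154, adjusted over both measures 0.258). The share of abundant transcripts that differed at least 2-fold was 9.67% in 11935d and 12.9% in 11935e, and 12.9% to 30.2% in the other fish, with 27.5% in 11935f (two-sided exact permutation test, p = 0.258, adjusted 0.258). Neither test passed, and the smallest p that the 364 assignments of fish allow is 0.00275.

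The 3 fish also differed from each other in their mean level over skin and tumor. In the joint model of fish and tissue, 5543 of 14902 transcripts (37.2%) passed the test of the fish term in edgeR. This count was 3058 without 11935d, 1853 without 11935e and 5171 without 11935f. Fish took 62.8% of the variance of log2 CPM over the 6 libraries on 2 degrees of freedom, tissue 26.9% on 1 and the remainder 10.3% on 2. The mean level of a fish over both tissues spanned a median of 0.95 on the log2 scale between the highest and the lowest fish.

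The named rows differed less between the fish, with a median span of 0.37. GSTM3 alone of the 20 passed the fish test, with a span of 2.29 between 11935f, the highest, and 11935d, the lowest (edgeR adjusted p = 0.0272). PRKCE_1of2 had a span of 0.90, again highest in 11935f and lowest in 11935d (edgeR adjusted p = 0.0601). Xmrk, averaged over skin and tumor, spanned 0.41 (edgeR adjusted p = 0.798). Few transcripts were silent in a single fish: 0 rows in 11935d, 1 in 11935e and 2 in 11935f had no count in both tissues of that fish and at least 10 CPM in each of the other 4 libraries.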

How the data were processed

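RNA of skin and melanoma was sequenced in 32 libraries. Per the labels' protocols, frozen tissue was homogenised in TRI Reagent, RNA was purified on spin columns with DNase, and libraries followed Illumina protocols. The aligner was GSNAP, according to the submitters' processing notes. Not given in the sources used here were its version, the genome build and annotation, the counter and the handling of parental alleles or gene copies. The authors deposited raw counts, as whole numbers per transcript, in a table of 20499 rows, of which 30 carry a symbol. Columns were matched to samples by title, and 1 of 32 columns matched none and was not used.

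From these counts, edgeR 4.0.16 (R 4.3.3) was run on the 6 libraries of 11935 with TMM scaling, filterByExpr, fish and tissue as terms, and a threshold of 0.05. Log2 CPM used a prior count of 2. DESeq2 1.42.0, limma 3.58.1 (voom), RLE factors, other filters, a fit without the block, a spread shared by 14 paired fish, a test against a 2-fold change and omission of each fish were alternatives. Scripts were tested on simulated data. Figures used matplotlib 3.10.9.

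The pairing comes from the titles, which give a skin and a tumor the same fish name. Deviations of log2 CPM from the tissue mean correlated at r = 0.714, 0.816 and 0.653 between the tissues of 11935d, 11935e and 11935f over 14902 transcripts, and at -0.432 to -0.297 between different fish. The deviations of a transcript cancel over the fish of a tissue. With positive values within fish, values between different fish are therefore negative on average by construction. No library repeated another: the lowest chi-square per degree of freedom between libraries of a tissue was 52.8, and 0 columns were identical. The libraries of a tissue come from different fish. Totals of 5303395 to 6977222 counts limit the precision of rows with few counts, and the intervals of count ratios cover counting error only.

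The fish, the gene lists and the choice of the block as the main design were set with earlier results of these data known. Named rows are all tested rows with a symbol, and of the identifiers the 2 largest rises and 2 largest falls among those past the threshold, alike in direction in 3 fish and with at least 10 CPM in the higher tissue. Full statistics for symbols other than Xmrk, those past the threshold and those with a log2 fold change of at least 1, and the 3 untested symbols given with values, were chosen after these were seen.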

Additional observations from a re-analysis of the deposited data

How the results depend on the processing

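The count of transcripts that differed between tumor and skin in 11935 was 1505 with the replicate block. It was 0 with no replicate block and 120 when tested against a 2-fold change, by its stricter null. Omission of a fish in turn gave 0 to 3129. Under RLE factors, DESeq2, both other filters, the shared spread, voom and removal of the 10 most abundant transcripts it lay between 1360 and 2094, within 1.5 times of 1505. With the spread shared by all paired fish, 941 (62.5%) of the 1505 were among the 1360 called. For the difference between 11935 and the other fish, the count was 10 in DESeq2 and 0 in edgeR. The count for the fish term was 5543, and 1853 to 5171 when a fish was omitted. The median difference of the lost transcripts was -1.96 with lists at 4-fold in place of 8-fold (-2.71 as reported for the mean of the 3 fish). A lower bar admits smaller changes in the other fish, and its part in the value of 11935 was not tested.

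Omission of a fish turned the sign of the log2 fold change in 5 rows that did not pass. It ranged from -0.14 (without 11935e) to 0.66 for PRKCB, from -0.99 to 0.71 (without 11935f) for CYP1A1, from -0.49 to 0.13 (without 11935e) for FGFR4, from -0.14 to 0.019 (without 11935d) for OXR1 and from -0.098 to 0.12 (without 11935e) for NR2F6_1of2. The last also stood at 0.0059 with RLE factors and 0.0064 in DESeq2. The cause of these changes was not tested. The block changed the call of both named rows that passed: with no replicate block the edgeR adjusted p was 0.324 for STAT4 and 0.283 for GPX6. Their adjusted p ran from 0.0261 to 1 and from 0.00233 to 0.589 over the alternatives. With 3 pairs, a sign-flip test of a single value cannot give a two-sided p below 0.25.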

Other observations

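Of the 40 comparisons of direction between 11935 and the title numbers 11949 and 11963 over the rows with a symbol, 0 had every fish of 11935 moving against every fish of the other number. This needs the same sign in all 3 fish of 11935, which 14 of the 20 rows had when its 6 libraries were scaled alone. The share over all transcripts was not computed, so the 0 does not measure how alike the title numbers are.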
